A study of Mus musculus with 76 samples.

Results

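The genes described here are 8 markers of arterial and venous endothelium, the cells that line blood vessels: Sox17, Nr2f2, Efnb2, Bmx, Gja4, Gja5, Vwf and Slc6a2. They are 8 of 20710 genes measured in mouse lung, and they were taken by symbol, each through the probe with the highest mean signal over all arrays. All 8 had a probe. The samples were alveolar septa, the walls between the air spaces, and pulmonary vessels, both microdissected from the lungs of 40 mice and measured on 76 single-colour arrays. The mice were wild-type or Noxo1 knockout animals of the strain C57BL/6-Noxo1(tm1881_17.2Arte). Noxo1 encodes an organizer subunit of an NADPH oxidase. Each genotype was either a control or was exposed to cigarette smoke from week 12, at 140 mg/m3 of particles, 6 h per day on 5 days per week. The sample titles give 3 and 8 months, while the protocols name an exposure of 8 months only, and the labels do not settle whether a time is an age or a length of exposure. Groups come from the titles because the source names are garbled. The 16 groups of genotype, exposure, time and tissue held 4 or 5 arrays each. No agent or transgene other than the Noxo1 allele was named in the labels, which do not state the sex of the mice. Values are log2 signals, and differences are on that scale.

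Arteries and veins of the lung are lined by endothelial cells with different programs. Arterial cells keep Notch signalling active: Sox17 is a transcription factor of that program, Efnb2 is the arterial membrane ligand of the venous receptor Ephb4, and Bmx is a cytoplasmic kinase of arterial endothelium. Gja4 and Gja5 encode connexins that join arterial endothelial cells through gap junctions. Nr2f2 is a nuclear receptor that holds Notch signalling down and is needed for venous identity. Vwf is the clotting and adhesion protein stored by endothelium of larger vessels, and Slc6a2 is the noradrenaline transporter of sympathetic nerves, which also marks venous endothelium of the lung. Alveolar septa, in contrast, are rich in capillaries.

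Sequence before the transcription start was available from RefSeq (GRCm38.p6) for 5 of the 8 genes. Those of Gja5, Gja4 and Bmx are shown because these genes were higher together in vessels. Each is the 250 bases before the start on the gene's strand, and capitals mark matches to short motifs of the arterial program's factors: ACAAT for SOX factors and AGGAAG for ETS factors, searched on both strands.
Gja5, chr3:97032152-97032401, plus strand: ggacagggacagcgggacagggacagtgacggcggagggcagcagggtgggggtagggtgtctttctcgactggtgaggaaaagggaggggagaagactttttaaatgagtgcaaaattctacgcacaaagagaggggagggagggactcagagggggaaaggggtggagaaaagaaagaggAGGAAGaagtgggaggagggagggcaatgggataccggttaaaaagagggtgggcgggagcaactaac
Gja4, chr4:127314040-127314289, minus strand: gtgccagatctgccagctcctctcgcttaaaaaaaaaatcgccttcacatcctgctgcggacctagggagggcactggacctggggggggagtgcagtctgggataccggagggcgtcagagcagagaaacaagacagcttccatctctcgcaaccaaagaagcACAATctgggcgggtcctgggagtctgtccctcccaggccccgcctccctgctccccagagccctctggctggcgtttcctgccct
Bmx, chrX:164258194-164258443, minus strand: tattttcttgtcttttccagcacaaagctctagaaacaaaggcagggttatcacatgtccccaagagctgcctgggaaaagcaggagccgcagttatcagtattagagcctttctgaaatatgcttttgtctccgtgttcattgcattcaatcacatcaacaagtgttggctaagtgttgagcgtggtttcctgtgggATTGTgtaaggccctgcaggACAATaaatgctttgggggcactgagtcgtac

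The Gja5 window held 1 ETS match, at 68 to 63 bases before the start. Gja4 held 1 SOX match at 86 to 82 bases. Bmx held 2 SOX matches, 1 on the gene strand at 32 to 28 bases and 1 on the other strand at 52 to 48 bases. Nr2f2 held 1 ETS match (218 to 213 bases) and Efnb2 none. GTGGGAA, the core of the Notch effector RBPJ's site, and AGGTCA, a nuclear receptor half-site, were in none of the 5. Over all 32851 promoters of the table, windows of the same length held the SOX motif in 27.7%, the ETS motif in 29.5%, the RBPJ motif in 5.42% and the half-site in 14.0%. The matches are a description of these letters only.

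Sox17 lies at chr1:4490928-4497426, Gja5 at chr3:97032402-97053634, Gja4 at chr4:127311420-127314039 and Vwf at chr6:125552948-125686679. Nr2f2 lies at chr7:70351946-70366746, Efnb2 at chr8:8617235-8661242, Slc6a2 at chr8:92960470-93001667 and Bmx at chrX:164192842-164258193, all in GRCm38.p6. In Gja4, Vwf, Slc6a2 and Nr2f2 1 probe was measured, and in the other genes 2. The probe used and the second one had means over all arrays of 9.47 and 7.28 for Sox17, 9.91 and 4.27 for Gja5, 8.31 and 3.11 for Bmx, and 10.16 and 8.25 for Efnb2. Over the 76 arrays the second probe followed the first with r of 0.665 for Sox17, 0.565 for Gja5, 0.431 for Bmx and 0.311 for Efnb2. Over both tissues together the probes of Efnb2 and Bmx were thus the least alike. Within vessels r was 0.481 for Sox17, 0.356 for Gja5, 0.34 for Bmx and 0.244 for Efnb2. Within septa it was 0.671, 0.379, -0.0191 and 0.48 in the same order. The second Bmx probe had means of 2.529 in septa and 3.715 in vessels, both below 4.004, a reference for dim signal given below. That of Gja5 was at 3.621 in septa and 4.958 in vessels.

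Some values of the whole set bear on what follows. Noxo1 itself was mostly low: it lay between 1.45 and 3.76 in knockout septa and between 1.39 and 5.57 in wild-type septa, and between 1.60 and 7.03 in knockout vessels and between 1.96 and 6.69 in wild-type vessels. The signal of 1338 odorant, vomeronasal and trace-amine receptor genes served as a reference for dim signal, and its 95th percentile was 4.004. These genes were assumed to be mostly unused in lung, which was not tested for single genes. Below it Noxo1 was found in 11 of 19 wild-type and 20 of 20 knockout septa, and 10 of 18 wild-type and 16 of 18 knockout vessels. The position of the probe relative to the deletion was not known, so Noxo1 checks the labels only loosely. Arrays of 1 tissue, taken over all its groups, were less alike in vessels (median r of an array with the others 0.801 to 0.882) than in septa (0.897 to 0.935). Mouse 25, a wild-type control at 3 months, gave 2 vessel arrays, which were averaged to 1 replicate, which left 36 vessel replicates beside 39 septa arrays. In mouse 7 and in mouse 29 the septa and vessel arrays differed in Xist and Y-linked signal, a sign of sex, in 2 of 35 mice with both tissues.

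Vessels and septa differed in 6 of the 8 genes. Vwf, Bmx, Gja5 and Gja4 were higher in vessels, and Sox17 and Slc6a2 were lower, by limma with Benjamini-Hochberg adjustment over all genes. Over all 20710 genes, 2620 (12.7%) were higher and 3358 (16.2%) lower in vessels, against 4 and 2 of the 8. The median difference of the 8 genes was 0.74, and that of all genes 0.02. In this bulk tissue, more cells of a type and more RNA per cell cannot be told apart.

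Vwf gave the clearest separation. Its signal in 39 septa arrays had a lowest value of 10.39, a median of 11.45 and a highest of 12.41, and in 36 vessel replicates these were 12.39, 13.60 and 14.36. The ranges overlapped by 1 replicate: 35 of the 36 vessel replicates lay above every septa array. Vwf was 4.25-fold higher in vessels (log2 difference 2.09 ± 0.09 SE, limma adjusted p = 1.02e-30), and higher in 35 of 35 mice with both tissues. The difference was between 1.62 (wild-type control, 3 months) and 2.59 (wild-type control, 8 months) in the 8 conditions.

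Bmx, the arterial kinase, ran from 5.80 over a median of 7.46 to 8.76 in septa and from 7.39 over 9.18 to 10.57 in vessels. The ranges overlapped, but 28 of 36 vessel replicates were above all septa. Bmx was 3.18-fold higher in vessels (1.67 ± 0.17 SE, adjusted p = 2.03e-13) and higher in 33 of 35 mice.

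The connexin Gja5 had a lowest, median and highest signal of 7.61, 9.17 and 10.53 in septa and of 8.67, 10.84 and 12.38 in vessels. Of the vessel replicates, 24 of 36 lay above all septa, and the rest overlapped with them. Its difference was 1.64 ± 0.16 SE (3.12-fold, adjusted p = 1.51e-13), with 32 of 35 mice higher in vessels. Gja4, the other connexin, had 5.92, 8.87 and 10.58 in septa and 7.89, 10.11 and 11.50 in vessels. Here the ranges overlapped more, and 12 of 36 vessel replicates were above all septa. Gja4 was 2.33-fold higher in vessels (1.22 ± 0.18 SE, adjusted p = 7.03e-08) in 30 of 35 mice.

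The transcription factor Sox17 went the other way. Its lowest, median and highest signals were 9.05, 10.12 and 10.71 in septa and 6.66, 8.86 and 10.61 in vessels, and 20 of 36 vessel replicates lay below all septa. Sox17 was 2.23-fold lower in vessels (log2 difference -1.16 ± 0.14 SE, adjusted p = 1.25e-10), in 30 of 35 mice. The gap was wide in knockout controls at 3 months (-2.45) and narrow in smoke-exposed knockouts at 8 months (-0.12).

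Slc6a2, the noradrenaline transporter, was also lower in vessels and was the most scattered of the 8 genes. In septa it ran from 4.45 over a median of 7.57 to 9.43, and in vessels from 1.26 over 5.28 to 8.24. Of 36 vessel replicates, 13 lay below the level of the receptor genes, against 0 of 39 septa arrays, so that the values at the low end have no firm order. The difference was -2.72 ± 0.31 SE (adjusted p = 4.18e-11) in 29 of 35 mice, a value that takes signals below the receptor level as they stand. In wild-type controls at 3 months, with no replicate below that level, the difference was -0.30. In knockout controls at 3 months all 4 vessel replicates were below it, and the septa mean was 11.4-fold above the reference. That value bounds the difference of the observed means from below and holds no sampling error. In smoke-exposed wild-type mice at 8 months 2 of 4 vessel replicates were below the receptor level. Of the 5 other sympathetic nerve genes measured, 3 had means below the receptor level in both tissues: Dbh, Npy and Chrna3. The rest did not average below it in either tissue. Of the 5, Th was at -0.54 and passed while the other 4 did not pass the test.

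Efnb2 and Nr2f2 did not pass the test. Efnb2 had a lowest, median and highest signal of 9.55, 10.37 and 11.35 in septa and of 7.31, 9.97 and 11.58 in vessels, and its difference was -0.33 ± 0.15 SE (95% interval -0.64 to -0.02, adjusted p = 0.0993). Without 1 smoke-exposed knockout vessel array at 3 months (replicate 4) it passed (-0.38, adjusted p = 0.0447). Nr2f2 ran from 6.52 over 8.77 to 10.02 in septa and from 5.22 over 9.00 to 10.57 in vessels, with a difference of 0.26 ± 0.21 SE (95% interval -0.16 to 0.68, adjusted p = 0.379). Both were spread over both tissues, with Efnb2 higher in vessels in 16 and Nr2f2 in 21 of 35 mice.

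**Figure D1:**
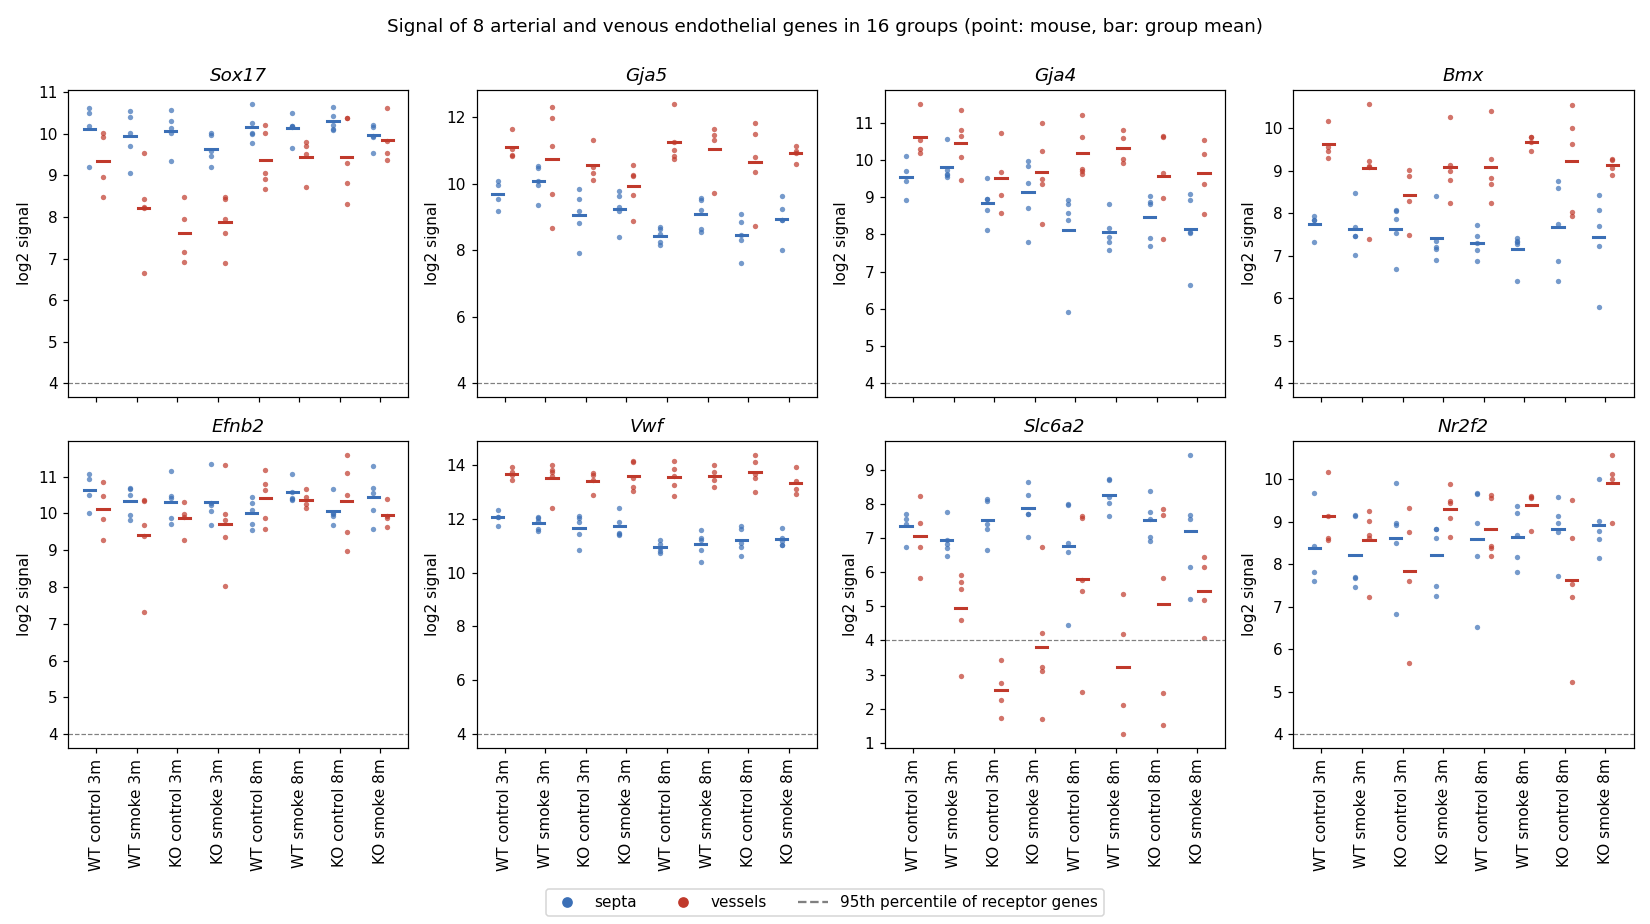
Log2 signal (y axis, own scale per gene) of the 8 genes in 8 conditions (x axis; WT wild-type, KO Noxo1 knockout, m months) in septa (blue) and vessels (red), with a point per mouse, a bar at the group mean and a dashed line at the receptor reference of 4.004. Vwf vessels sit above septa in every condition, and 13 of 36 Slc6a2 vessel points fall under the line.

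The vessels differed from septa in cell types too. All 11 smooth muscle genes measured were higher in vessels (median difference 4.09), among them Acta2 (6.17), Cnn1 (7.92), Tagln (3.54) and Actg2 (7.52). All 8 type 1 pneumocyte genes (median -2.42) and all 8 type 2 pneumocyte genes (median -1.25) were lower in vessels. Higher were 6 of 7 airway genes (median 2.29) and 9 of 10 genes of the cardiac muscle sleeve of pulmonary veins (median 2.44). In septa 4 of the 7 airway, 7 of the 10 cardiac and 2 of the 11 smooth muscle genes averaged below the receptor level. The sizes of their differences are thus uncertain. Of 15 genes expressed by endothelium in general, 12 were lower in vessels and 0 higher, with a median of -0.69, among them Cdh5 (-1.11), Cldn5 (-0.91), Robo4 (-1.57) and Ramp2 (-0.69). Averaged per array, their signal ran from 9.56 to 10.33 in septa and from 8.70 to 9.73 in vessels. Of 10 capillary genes 8 were lower and 0 higher (median -2.02), with Apln at -4.02, Hpgd at -2.17, Sema3c at -2.10 and Gpihbp1 at -2.64. Apln averaged below the receptor level in vessels, so the size of its difference is uncertain.

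With the mean of the pan-endothelial genes as a covariate, the vessel minus septa differences were 2.60 for Vwf, 2.54 for Gja5, 2.10 for Bmx and 2.07 for Gja4. Each was larger than without it. That mean was itself lower in vessels (8.70 to 9.73, against 9.56 to 10.33 in septa), so the tissues share little of its range. The adjusted differences thus reach beyond values found in both tissues. Under the same covariate Slc6a2 was at -3.44 and Sox17 at -0.88 (adjusted p = 0.0216). Efnb2 turned to 0.52 (adjusted p = 0.271) and Nr2f2 to -0.09 (adjusted p = 0.939), and neither passed the test.

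Other genes of the arterial program did not share 1 direction. Of 19 measured genes of Notch signalling and related arterial factors, 7 were higher and 5 lower in vessels (median 0.01). The lowest p-values were those of Cxcr4, the arterial chemokine receptor (-1.19), Fbln5, a matrix protein of elastic vessels (1.35), Sox7, a relative of Sox17 (-1.04), and Hey2, a Notch target (1.50). Hey2 averaged below the receptor level in both tissues. Of 12 venous genes and partner receptors, 5 were higher and 5 lower (median 0.03). Cpe (5.09), Vcam1 (2.41) and Selp (2.63) were among the higher, and Ephb4, the receptor of Efnb2, was at -0.89 in vessels against septa. Selp averaged below the receptor level in septa, so the size of its difference is uncertain. Of 8 platelet and megakaryocyte genes, which can bring Vwf message, Pf4 was higher (0.90) and 3 were lower, led by Ppbp (-3.66) and Treml1 (-1.06), while Itga2b, Gp9 and Tubb1 averaged below the receptor level in both tissues.

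**Figure D2:**
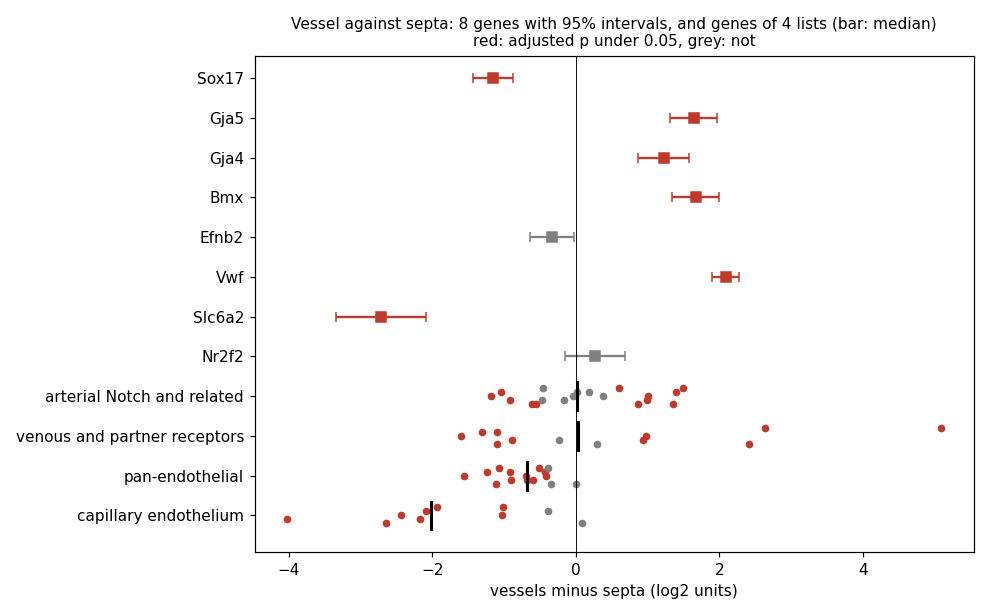
Vessel minus septa difference in log2 units (x axis) for the 8 genes, as squares with 95% intervals, and for the single genes of 4 lists as points, with a bar at each list's median. Red marks an adjusted p under 0.05; the median sits at -2.02 for capillary genes and at 0.01 for arterial Notch genes, and Vwf sits at 2.09.

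Over the 16 groups, the order of the means showed few steps beyond the spread. For Vwf the 8 vessel groups were the 8 highest, between 13.34 ± 0.44 (SD, n = 4) and 13.73 ± 0.53 (SD, n = 5), and the step of 1.28 from the lowest vessel group to the highest septa group, wild-type controls at 3 months, exceeded the larger SD. For Sox17 the step of 1.14 from wild-type control vessels at 3 months (9.35 ± 0.75, SD, n = 4) to smoke-exposed wild-type vessels at 3 months (8.22 ± 1.03, SD, n = 5) exceeded it. All other neighbours of the 8 genes lay within the larger of their SDs.

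Smoke was compared in vessels within each genotype and time, and as the mean over the 4 comparisons. By limma, 0 of the 8 genes passed the test in any of them, nor did any of the 20710 genes (0%). At an unadjusted p under 0.05 there were 1036 genes for the mean and 609 to 1283 for the single comparisons, and 1 of the 8 genes in each. The median mean difference of the 8 genes was -0.09, and 3 of 8 were above 0.

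Nr2f2, the venous nuclear receptor, had the largest of the mean smoke differences in vessels, 0.94 ± 0.31 SE (95% interval 0.30 to 1.57, unadjusted p = 0.0049, adjusted p = 0.975). In knockout controls at 8 months its signals were 5.22, 7.24, 7.54, 8.61 and 9.51, and in smoke-exposed knockouts 8.98, 10.02, 10.13 and 10.57. Only the highest control, at 9.51, reached into the exposed group. The difference was 2.30 ± 0.63 SE (95% interval 1.03 to 3.57), placed 17 of 20710 by p, yet its adjusted p was 0.928.

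At 3 months the knockout controls had Nr2f2 signals of 5.68, 7.61, 8.77 and 9.33 and the exposed knockouts 8.64, 9.09, 9.45, 9.50 and 9.89. The groups overlapped, with a low array in the controls, and the difference was 1.47 ± 0.63 SE (adjusted p = 0.723). In wild-type mice it was -0.56 ± 0.63 SE at 3 months and 0.55 ± 0.63 SE at 8 months. The smoke effect in knockouts minus that in wild-type mice was 1.89 ± 0.63 SE over both times (adjusted p = 0.998). Without the low control array at 3 months (replicate 4) it was 1.53, and the mean smoke difference was 0.76. That array had a median r of 0.802 with the other vessel arrays, beside a lowest of 0.801. In septa the mean smoke difference of Nr2f2 was -0.11 ± 0.27 SE, and the difference between tissues, 1.07 ± 0.42 SE, did not pass the test (adjusted p = 0.735). There, 2 of 20710 genes passed (0.00966%), and neither was 1 of the 8 genes.

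Female-pattern arrays were 3 of 19 among control and 9 of 18 among smoke-exposed vessel arrays. With that pattern, cut at the gap, as a covariate, the Nr2f2 difference in knockouts at 8 months was 2.34 and the mean smoke difference 0.96. Over 14 alternatives that leave out no single array the first ran from 2.10 to 2.40, and with 1 array left out at a time from 1.70 to 2.77.

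Slc6a2 had the widest smoke differences in wild-type vessels, -2.12 ± 1.16 SE at 3 months and -2.56 ± 1.16 SE at 8 months (adjusted p = 0.863 and 1.00). Wild-type controls at 8 months had 2.50, 5.46, 5.77, 7.58 and 7.65 and exposed wild-type mice 1.26, 2.12, 4.18 and 5.37. The exposed mice were mostly lower, but the groups overlapped, and 2 of 4 exposed mice and 1 of 5 controls were below the receptor level, so the size is uncertain. In knockouts at 3 months 4 of 4 controls and 3 of 5 exposed mice were below it, and no size is given. The difference between genotypes in the smoke effect over both times had an adjusted p of 0.998.

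In wild-type control vessels at 3 months Sox17 was at 8.49, 9.93 and 10.03 in 3 mice and at 8.34 and 9.59 on the pair of arrays of mouse 25. Exposed wild-type vessels had 6.66, 8.22, 8.25, 8.44 and 9.53. The groups overlapped, and the smoke difference was -1.14 ± 0.50 SE (unadjusted p = 0.0295, adjusted p = 0.783). The other Sox17 smoke differences were 0.06 to 0.41. For Vwf they lay between -0.39 and 0.18, for Gja4 between -0.16 and 0.17, for Gja5 between -0.65 and 0.27, for Bmx between -0.55 and 0.66 and for Efnb2 between -0.70 and -0.04. The mean smoke difference of Vwf had the narrowest 95% interval (-0.38 to 0.21).

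In septa the mean smoke difference was largest for Gja5, 0.43 ± 0.17 SE (unadjusted p = 0.0132, adjusted p = 0.567), and by limma 0 of 20710 genes (0%) passed, with 1594 at an unadjusted p under 0.05. Gja5 was at -0.23 ± 0.28 SE in vessels, and the difference between the tissues was -0.65 ± 0.32 SE (adjusted p = 0.808).

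**Figure D3:**
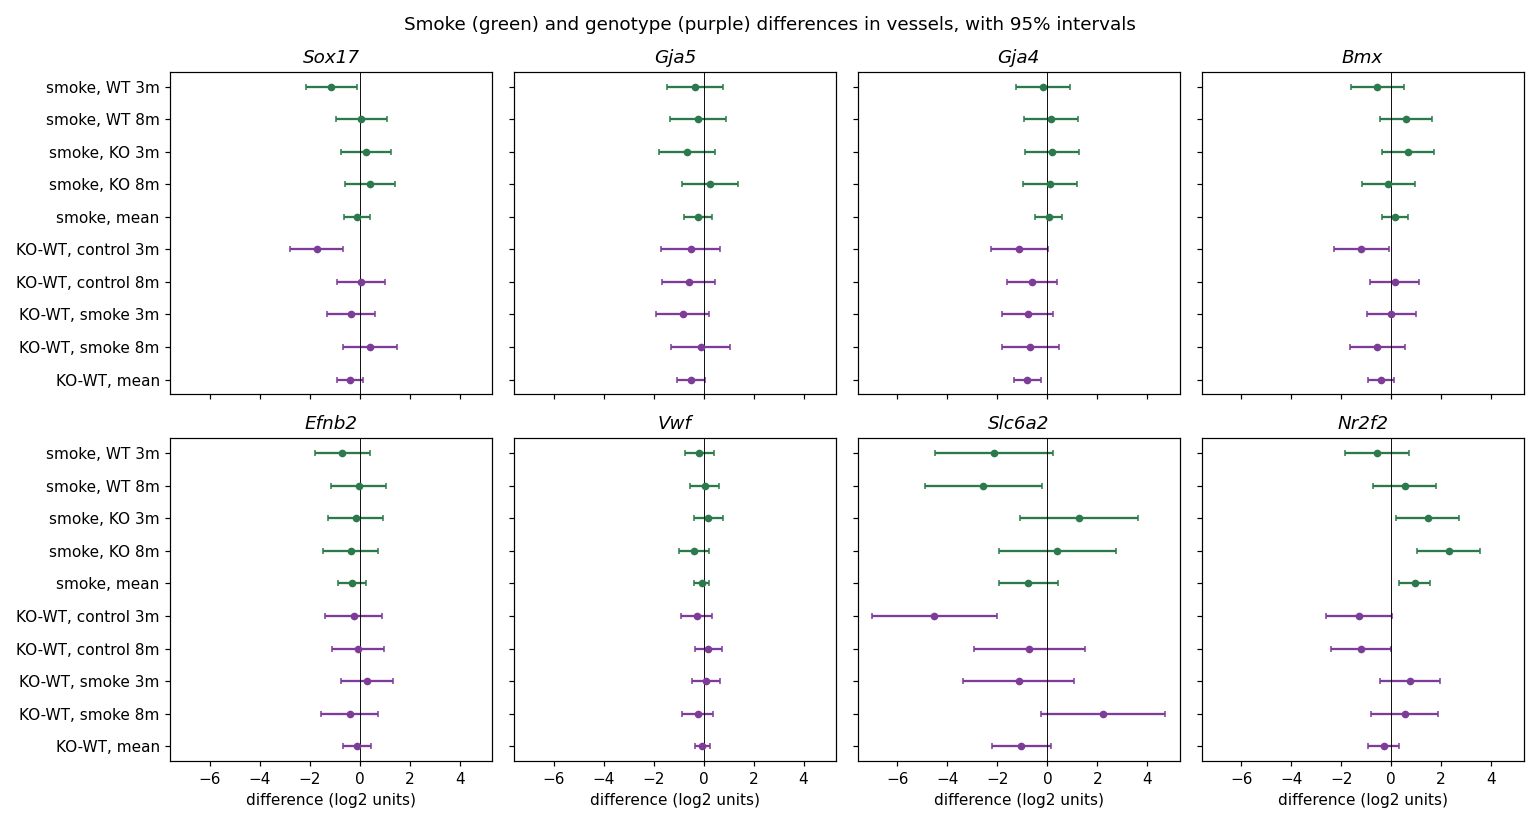
Differences in vessels in log2 units (x axis, shared scale) with 95% intervals for smoke against control (green) and knockout against wild-type (purple), in each single comparison and as the mean. The Slc6a2 intervals are the widest and those of Vwf the narrowest. The Nr2f2 smoke difference in knockouts at 8 months is at 2.30, and fitted Slc6a2 values include signals below the receptor level.

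Genotype was compared in vessels within each exposure and time, and as the mean. Again 0 of the 8 genes and 0 of 20710 genes (0%) passed by limma, with 1007 genes at an unadjusted p under 0.05 for the mean and 654 to 1477 for the single comparisons. Of the 8 genes, 1 was among them for the mean, 3 in controls at 3 months (beside 5.61% of all genes), 1 in controls at 8 months and 0 in smoke-exposed mice at either time. All 8 mean differences, knockout minus wild-type, were below 0, with a median of -0.40, beside -0.02 for all genes. No count of all genes below 0 is set beside this. Several of the 8 genes varied together over the vessel replicates, so they are not 8 separate results. On the same arrays the median was -0.08 for endothelial genes in general, -0.18 for smooth muscle, 0.14 for type 2 pneumocyte and 0.68 for airway genes (7 of 7 above 0), and no gene of these lists passed. Female-pattern arrays were 8 of 18 in knockout and 4 of 19 in wild-type vessels. With that pattern as a covariate none of the 8 genes passed a genotype test.

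Gja4 had the lowest p of the mean genotype differences, -0.80 ± 0.27 SE (95% interval -1.34 to -0.26, unadjusted p = 0.0047, adjusted p = 0.979). The wild-type group means were 10.18 to 10.63 and the knockout ones 9.51 to 9.68, and single mice overlapped. Its single comparisons were all below 0, from -1.12 ± 0.56 SE in controls at 3 months to -0.62 ± 0.50 SE in controls at 8 months. Gja5 followed with -0.52 ± 0.28 SE, and Bmx and Sox17 were both at -0.40, with SEs of 0.26 and 0.25. For Vwf the mean was -0.06 ± 0.14 SE, with a 95% interval of -0.35 to 0.24.

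Slc6a2 stood apart by genotype in control vessels at 3 months. Knockout mice had 1.74, 2.26, 2.75 and 3.42, all below the receptor level. Wild-type mice had 6.75, 7.43 and 8.24, and the arrays of mouse 25 had 4.52 and 7.14. The groups did not overlap. With the receptor reference in place of the knockout signal, Slc6a2 was at least 8.32-fold higher in wild-type mice, and the adjusted p was 0.762. In a fit of all 76 arrays, which estimates the spread over both tissues together, Slc6a2 passed (adjusted p = 0.0362), as did 13 other genes. The SD of Slc6a2 was 0.94 over septa and 2.09 over vessels, so that fit takes a smaller spread than the vessels had. It also holds the arrays of mouse 25 singly. Of 14 alternatives that leave out no single array, it was the only 1 in which Slc6a2 passed. The other genotype differences were -0.73 ± 1.09 SE in controls at 8 months, -1.14 ± 1.09 SE under smoke at 3 months and 2.23 ± 1.22 SE under smoke at 8 months. Of their knockout replicates 2 of 5, 3 of 5 and 0 of 4 were below the reference, and of the wild-type ones 1 of 5, 1 of 5 and 2 of 4.

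Genes of other cells are set beside it. The mean of 10 genes of pulmonary vein cardiac muscle was 4.37 to 4.62 in the knockout controls at 3 months and 4.34 to 12.14 in the wild-type ones, with a median difference of -3.22 over the genes. All 10 were below 0 and none passed the test. In the knockout controls 5 of the 10 averaged below the receptor level, and 0 did in the wild-type ones. Over the 36 vessel replicates this list's mean correlated with Slc6a2 at r = 0.44. Without the 2 replicates farthest from the median of the list's mean, r was 0.346. These values share arrays and groups. The 5 sympathetic nerve genes averaged 2.94 to 3.49 in the knockout and 3.12 to 4.33 in the wild-type controls. The part of these cell types in the Slc6a2 difference was not tested.

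Sox17 had a low p in that comparison too: knockout control vessels at 3 months had 6.91, 7.16, 7.95 and 8.48, all below the 3 wild-type mice with 1 array (8.49 and above), with the highest above the lower array of mouse 25 (8.34). Its difference was -1.73 ± 0.53 SE (unadjusted p = 0.00239, adjusted p = 0.762). Bmx was at -1.20 ± 0.54 SE, Nr2f2 at -1.28 ± 0.66 SE and Gja4 at -1.12 ± 0.56 SE. All 8 genes were below 0 with a median of -1.16, and no such count over all genes is set beside it. Several of them varied together over the vessel replicates (r = 0.665 for Bmx and Efnb2, 0.559 for Gja4 and Vwf), so they are not 8 separate results. Without replicate 4 of the knockout controls, whose median r with the other vessel arrays was 0.802, Nr2f2 was at -0.56 and Sox17 at -1.49. Bmx was then at -1.40 and Gja4 at -1.53. The controls at 3 months also enter the smoke comparisons at 3 months. The difference between genotypes in the smoke effect passed the test for 0 of the 8 genes at 3 months, at 8 months and over both (0% of all genes in each, with 1249, 650 and 907 genes at an unadjusted p under 0.05). In septa the mean genotype difference was largest for Gja5, -0.40 ± 0.17 SE (unadjusted p = 0.0207, adjusted p = 1.00), and 0% of genes passed, with 825 at an unadjusted p under 0.05. Between the tissues the genotype difference passed for 0% of genes (951 at an unadjusted p under 0.05), with an adjusted p of 0.999 for each of the 8 genes.

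The 8-month samples were compared with the 3-month ones over all genotypes and exposures. In vessels Sox17 rose and was the only one of the 8 genes to pass. In septa, a comparison added after the data were seen, Vwf, Gja4 and Gja5 fell and none rose. In vessels 211 of all genes (1.02%) were higher and 51 (0.246%) lower at 8 months. The septa had 461 (2.23%) higher and 264 (1.27%) lower, so 3 of 8 lower there stands against 1.27%. Age and any difference in handling between the times cannot be told apart.

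Sox17 in vessels had a lowest, median and highest signal of 6.66, 8.33 and 10.03 at 3 months (n = 18) and of 8.32, 9.53 and 10.61 at 8 months (n = 18). The ranges overlapped, with the 3-month values reaching lower. The difference was 1.25 ± 0.25 SE (adjusted p = 0.00802). By condition it was 0.02 in wild-type controls, 1.22 in smoke-exposed wild-type mice, 1.81 in knockout controls and 1.97 in smoke-exposed knockouts. Wild-type control means were close at both times, but the difference between genotypes in the time effect, 1.27 ± 0.50 SE (unadjusted p = 0.0158, adjusted p = 0.995), did not pass. The difference between exposures was 0.68 ± 0.50 SE (adjusted p = 0.969). These tests were added after the data were seen. Both tests had 0% of genes passing, with 987 and 1039 at an unadjusted p under 0.05.

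The second Sox17 probe had means of 6.51 and 7.04 in vessels at the 2 times, a smaller gap than the 8.24 and 9.51 of the first. With the mean of both probes the rise was 0.90 and no longer passed (adjusted p = 0.0676). In septa the first probe had means of 9.94 and 10.14, a difference of 0.19 ± 0.13 SE. The vessel minus septa difference in the time effect was 1.08 ± 0.28 SE and did not pass (adjusted p = 0.148). Efnb2 was at 0.49 ± 0.27 SE in vessels by its first probe (9.75 and 10.28), while its second went from 8.67 to 7.76. In septa the first probe gave -0.13 ± 0.15 SE, and the mean of both gave -0.69 and passed (adjusted p = 0.0447). Bmx, Nr2f2, Slc6a2 and Gja5 lay between 0.23 and 0.37 in vessels.

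Among the other genes on the lists, vessels at 8 months had higher Hey1, a Notch target (0.85), Cdh5, the adhesion protein of endothelial junctions (0.73), and Lyve1 (0.59), and lower Sfrp2 (-2.04). These are 1 of 19 arterial Notch, 1 of 15 general endothelial, 1 of 5 lymphatic and 1 of 8 fibroblast genes. With the pan-endothelial mean as a covariate Sox17 still passed, as it did in 12 of 13 alternatives that kept all vessel replicates or left out mice 7 and 29.

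In septa Vwf had a lowest, median and highest signal of 10.84, 11.88 and 12.41 at 3 months (n = 19) and of 10.39, 11.08 and 11.74 at 8 months (n = 20). It fell by 0.70 ± 0.12 SE (adjusted p = 0.000266), by between 0.45 and 1.11 in the 4 conditions. Gja4 ran 7.81, 9.51 and 10.58 at 3 months and 5.92, 8.28 and 9.09 at 8 months, with a difference of -1.14 ± 0.23 SE (adjusted p = 0.00204). Gja5 ran 7.92, 9.52 and 10.53 and then 7.61, 8.67 and 9.61, a difference of -0.78 ± 0.17 SE (adjusted p = 0.00364). The 3 genes overlapped between the times and were lower at 8 months in all 4 conditions each. In wild-type and knockout controls, which had no smoke, the differences were -1.11 and -0.45 for Vwf, -1.42 and -0.38 for Gja4 and -1.25 and -0.60 for Gja5.

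In vessels Vwf had means of 13.54 and 13.55 at the 2 times, with a difference of 0.00 ± 0.14 SE. Gja4 was at -0.14 ± 0.27 SE and Gja5 at 0.37 ± 0.28 SE there. The vessel minus septa difference in the time effect was 0.70 ± 0.18 SE for Vwf, 1.01 ± 0.36 SE for Gja4 and 1.17 ± 0.32 SE for Gja5, and none of the 8 genes passed (adjusted p = 0.166, 0.396 and 0.203), while 7 genes of all did (0.0338%). Neither genotype nor smoke moved the septa time effect past the test in any gene (0% in each, with 979 and 1232 genes at an unadjusted p under 0.05). By genotype, the falls in septa were smaller in knockouts for Vwf (0.47 ± 0.23 SE), Gja4 (0.90 ± 0.46 SE) and Gja5 (0.65 ± 0.33 SE). By limma their unadjusted p was 0.0485, 0.0551 and 0.0559, and their adjusted p 0.9955 each. The general endothelial genes in septa had a median time difference of 0.04, and Ptprb (-0.39) was the only one of 15 to pass. The platelet genes had a median of -0.25, with Itgb3 (-0.76) the only one of 8 to pass.

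**Figure D4:**
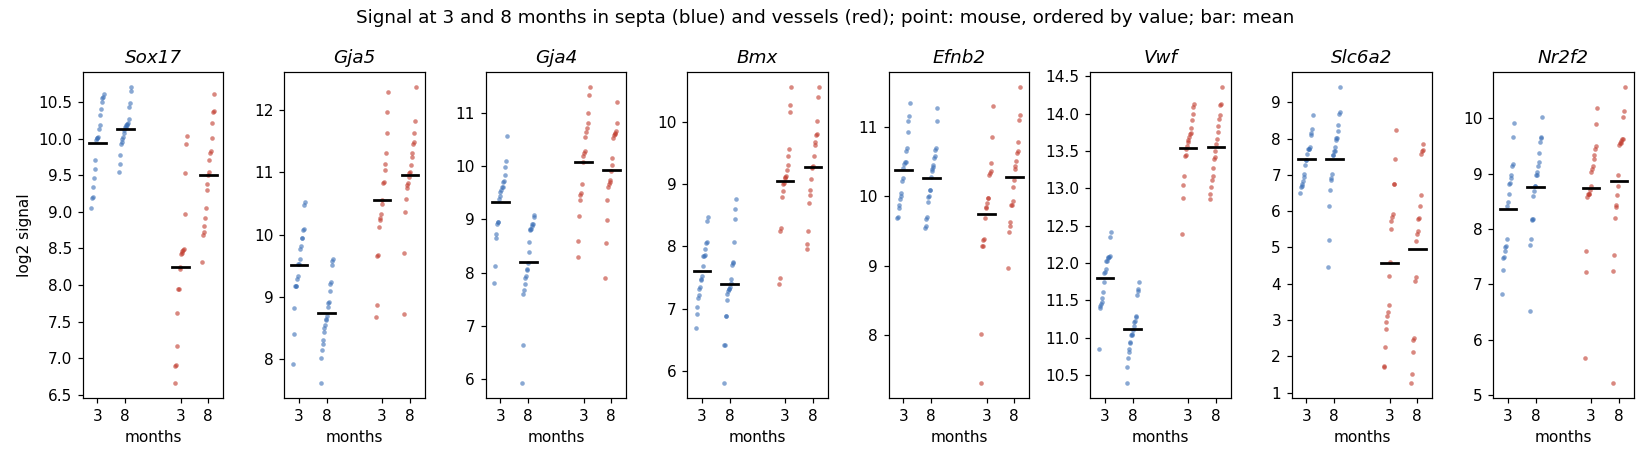
Log2 signal (y axis, own scale per gene) of the 8 genes at 3 and 8 months in septa (blue) and vessels (red), a point per mouse ordered by value and a bar at the mean. Sox17 vessels have means of 8.24 and 9.51, and septa of Vwf have means of 11.80 and 11.11.

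The 8 genes were also set against one another over the 36 vessel replicates. Bmx and Efnb2 had the highest correlation, r = 0.67, followed by Bmx and Vwf (0.61), Gja4 and Vwf (0.56), Gja5 and Gja4 (0.56) and Efnb2 and Vwf (0.55). Gja4 and Efnb2 were at 0.28, like Sox17 with Efnb2 and with Gja5. Sox17, Slc6a2 and Nr2f2 had no r over 0.4 or under -0.4 with any of the others. After the group means were subtracted Slc6a2 ran against 5 genes, with r of -0.58 for Vwf, -0.574 for Gja4, -0.463 for Bmx, -0.461 for Efnb2 and -0.444 for Gja5, values that include Slc6a2 signals below the receptor level. In a further set the 2 replicates farthest from the median of the first gene named in each pair were left out. Bmx and Efnb2 were then at 0.63, Bmx and Vwf at 0.46 and Efnb2 and Vwf at 0.36. Gja5 and Vwf were at 0.319, Gja4 and Efnb2 at 0.0638, and Sox17 and Efnb2 at 0.409. These values share arrays, dissection and the group differences, and are a description. Genes of other cells varied with them: the mean of the smooth muscle genes correlated over these replicates with Vwf at r = 0.64, with Gja4 at 0.61 and with Gja5 at 0.53, and that of type 2 pneumocyte genes with Vwf at -0.65 and with Gja4 at -0.59. The pan-endothelial mean correlated with Efnb2 at 0.595 and with Gja5 at 0.582. Their part in the correlations among the 8 was not tested. Over 39 septa arrays Bmx and Efnb2 were at r = 0.155, and Gja5 correlated with Vwf at 0.44 and with Gja4 at 0.42. After the group means were subtracted these last values were -0.0186 and -0.00649.

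**Figure D5:**
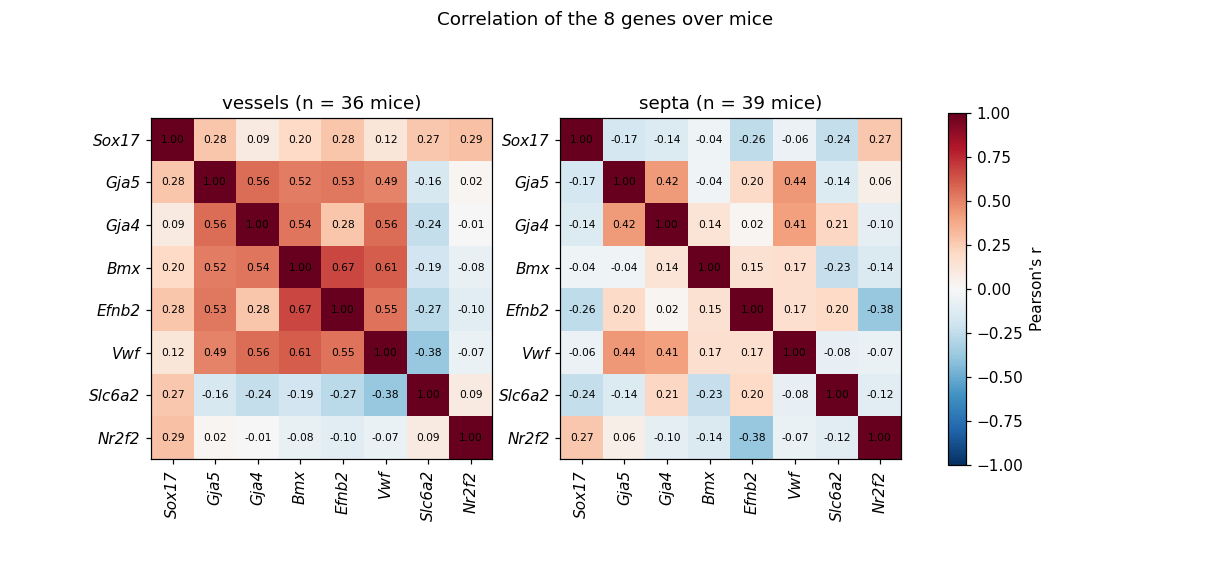
Pearson's r between the 8 genes (both axes) over 36 vessel replicates (left) and 39 septa arrays (right), on a colour scale from -1 to 1. In vessels the highest value is that of Bmx and Efnb2 at 0.67, and Gja4 and Efnb2 are at 0.28.

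Among all named genes above the receptor level in vessels, those most like each of the 8 were sought by Pearson's r over the 36 vessel replicates. Vwf was most like Tpm2 (r = 0.81), Myh11 (0.78) and Stac (0.77), of which Tpm2 and Myh11 encode contractile proteins of smooth muscle. Gja5 was most like Plxnd1 (0.75), a semaphorin receptor of endothelium, Sparcl1 (0.69) and Vim (0.69). Gja4 had Sulf1 (0.65), Cxxc1 (0.61) and Atp2a3 (0.60), and Bmx had Efnb2 (0.67), Fblim1 (0.66) and Mical2 (0.65).

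Efnb2 was most like the integrin subunit Itgb1 (0.68), Lyve1 (0.67) and Cav2 (0.67), a caveolar protein. For Sox17 these were Kif13a (0.68), Mgp (0.68), a calcification inhibitor, and Pkdcc (0.68). Nr2f2 had the phosphatase subunit Ppp2ca (0.70), Eif4h (0.66) and Prdx3 (0.63), and Slc6a2 had Lpl (0.68), which encodes lipoprotein lipase, Dap3 (0.58) and Acer3 (0.58). Again the 2 replicates farthest from the median of the first gene named were left out. Then r was 0.444 for Nr2f2 and Ppp2ca, 0.396 for Nr2f2 and Prdx3 and 0.445 for Efnb2 and Cav2, beside 0.724 for Vwf and Tpm2.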

How the data were processed

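Per the labels' protocols, RNA was isolated with the RNeasy Micro kit, amplified with Ovation PicoSL WTA V2, Cy5-labelled and hybridized. The submitters' processing notes name limma without a version, and 4 arrays that gave no signal had been dropped before deposit. The deposited values are log2 signals, and their near-equal column medians (3.19 to 3.192) go with a quantile normalization between arrays. How background was corrected: not given in the sources used here. Of 62976 features 31465 had 1 gene symbol, 31511 had none, and features with an empty cell (671) were left out, giving 20710 genes, each by its brightest probe. Arrays give no depth, so their number limits the precision.

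Each tissue was fitted on its own with limma 3.58.1 (R 4.3.3): a mean per group, eBayes with a trend, Benjamini-Hochberg adjustment over all genes, threshold 0.05. Tissue comparisons used 76 arrays with the mouse as a random block (consensus correlation 0.0262). Over 35 mice with both tissues the residuals correlated at a mean of 0.0301, with 1 over 0.1. The vessel fit averaged the 2 arrays of mouse 25. SE and adjusted p come from limma unless unadjusted is written, and folds are powers of 2 of the fitted differences. The labels name mice, but not which shared a cage or litter. Lower bounds for Slc6a2 put the receptor reference in place of a group whose replicates were all below it. They hold for the observed means only, without sampling error. Correlations and figures used Python 3.11.15 with numpy 2.4.6, pandas 2.3.3 and matplotlib 3.10.9, and the fits were tested on simulated data. The 8 genes and the gene lists were chosen with earlier results of these data known. Named from a list were up to 4 genes with the lowest p for vessels against septa and those passing a time test, the latter added after their values were seen. For likeness, the 3 genes with the highest r were named, without unnamed gene models. Alternatives covered normalization, probe choice, dim genes, weights, variance trend, blocks, sex pattern, endothelial content, sample sets and each array left out.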

Additional observations from a re-analysis of the deposited data

Results flagged for a closer look

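In 8 of 128 gene and group pairs with 4 or 5 samples, 1 array stood apart from the rest of its group by Dixon's criterion, a number near the 1 in 20 that chance gives. In smoke-exposed wild-type vessels at 8 months Gja5 was at 9.70 on replicate 3 against 11.32 to 11.64 on the others, and Nr2f2 at 8.78 against 9.56 to 9.62 on the same replicate. The septa array of that mouse had Bmx at 6.41 against 7.28 to 7.41. Efnb2 was at 11.08 on replicate 2 of that septa group against 10.37 to 10.58. Gja4 was at 5.92 on replicate 3 of wild-type control septa at 8 months, where the others had 8.38 to 8.92, and at 10.58 on replicate 4 of smoke-exposed wild-type septa at 3 months, where they had 9.55 to 9.73. Bmx was at 7.32 on replicate 2 of wild-type control septa at 3 months against 7.84 to 7.95, and Vwf at 12.39 on replicate 3 of smoke-exposed wild-type vessels at 3 months against 13.57 to 13.99.

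Slc6a2 in wild-type mice at 8 months differed with smoke in opposite directions in the tissues, -2.56 in vessels and 1.48 in septa, a gap of -4.04. This was 1 of 48 pairs compared, and the difference was not tested. Of the 4 exposed vessel replicates 2 were below the receptor level, so its size is uncertain.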

How the results depend on the processing

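Of 9672 alternative values for the 8 genes, 9654 were counted as unchanged, 1 lost a call, 3 gained one and 14 were counted as changed in sign. A change of sign was counted where either value passed or the value moved by over 1 SE. Smaller moves across 0 were thus counted as unchanged, such as Slc6a2 for smoke in knockout vessels at 8 months (0.40, and -0.49 with 1 array left out). Changes of size alone were counted as unchanged too. An example is Nr2f2 by genotype in control vessels at 3 months (-1.28, and -0.56 with 1 array left out). Most results had not passed and so had no call to lose, and the count of unchanged values does not measure stability of size. The cause of these changes was not tested. The call lost was Sox17 in vessels over time with the mean of all probes, which left 0 of the 8 genes higher.

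Counts over all genes: in 1 fit over all 76 arrays the vessel tests called 14 genes for genotype in controls at 3 months (Slc6a2 the 1 among the 8, lower), 53 for genotype under smoke at 3 months, 1 for mean genotype, 34 and 23 for smoke at 3 months in wild-type and knockout mice, 2 for smoke in knockouts at 8 months, 5 for mean smoke, 13 and 4 for the interaction at 3 months and its mean, each against 0, and 1111 for time against 262. The time count was 173 with the pan-endothelial covariate, 168 and 167 with the sex pattern by either rule, 475 without dim genes and 148 without mice 7 and 29. The tissue count was 2352 against 5978 with the pan-endothelial covariate. Tissue by time gave 4 with array weights, 3 with mouse as a fixed factor and 2 with the pan-endothelial covariate against 7. Tissue by smoke gave 0 with mouse as a fixed factor and 1 without mice 7 and 29 against 2, and tissue by genotype 1 with mouse as a fixed factor. Genotype under smoke at 3 months gave 1 with either sex covariate. Mean smoke gave 1 with both arrays of mouse 25, without trend, with the mean of probes and without dim genes. The replicate block gave 1 gene for smoke in knockouts at 8 months and changed no call of the 8 genes. Same-numbered vessel arrays had a mean residual correlation of 0.0249, so the numbers were not taken to pair samples.

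Signs changed with the pan-endothelial covariate for Efnb2 (0.516) and Nr2f2 (-0.0853) between tissues and for Bmx (-0.0338), Gja5 (-0.00423) and Vwf (-0.149) over time in vessels. With the mean of probes they changed by genotype under smoke at 3 months for Bmx (-0.491) and Efnb2 (-0.353). They also changed over time for Efnb2 in vessels (-0.211) and for Bmx in septa (0.013). The second Bmx probe averaged below the receptor level in both tissues. Without mice 7 and 29 genotype in controls at 8 months was -0.395 for Bmx and 0.606 for Slc6a2, and with the sex pattern cut at the gap Sox17 was at -0.470 for smoke in wild-type mice at 8 months. With 1 array left out, genotype under smoke at 3 months ran from -0.242 to 0.705 for Efnb2 and from -0.188 to 0.226 for Vwf. Gene counts then ran from 1 to 3 for tissue by smoke, 4 to 12 for tissue by time, 0 to 2 for the interaction at 3 months, and 0 to 1 for mean smoke, smoke in knockouts at 3 months and genotype in controls at 3 and 8 months, under smoke at 3 months and as the mean. Signals below the receptor level, 13 of 36 for Slc6a2 in vessels, limit what can be ordered.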
